A study of Mus musculus with 21 samples.

Results

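Of 21 bulk RNA libraries of mouse aortic valves, 7 carried far more heart muscle RNA than the other 14, and these 7 muscle-rich libraries are described here. They are, numbered as in the sample titles, WT 4, N1het stenosis 2, N1het stenosis XCT790 1, N1het healthy XCT790 5 and, as the largest share, N1het healthy 2, 5 and 6. The members were chosen on measured values, the levels of heart muscle transcripts led by Myl2, Tnnt2 and Ckmt2. Every difference in gene level between the 7 and the 14 is therefore a description of these libraries, given with no p-value of its own, and counts of genes past a threshold of p are descriptions too. Depth and the spread over the labelled groups were tested, since neither was used to choose the libraries. In bulk RNA, fewer cells of a type and less RNA per cell cannot be told apart.

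All mice, the controls included, were of generation 2 of a Terc-/- line, which lacks the RNA template of telomerase. The 4 WT libraries had an intact Notch1 (N1+/+), healthy valves and solvent. N1het libraries came from mice with a single working copy of Notch1, a receptor gene, with healthy valves and solvent (6 libraries), healthy valves and XCT790 (5), stenotic valves and solvent (3), or stenotic valves and XCT790 (3). Esrra encodes ERRα, an orphan nuclear receptor, and XCT790 lowers its activity as an inverse agonist. Solvent or 5 mg/kg/day of XCT790 was injected into the abdomen every day for 4 weeks, from 4 weeks of age. In 6 libraries, N1het stenosis 2 of the muscle-rich set among them, the agent field of the labels contradicts the title, and the titles were followed. The labels do not give the animals or valves behind each library, so a p-value measures the spread between samples, which may be technical.

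Heart muscle contracts through sarcomeres, in which thick filaments of myosin pull on thin filaments of actin that are anchored at the Z-discs. Calcium released from the sarcoplasmic reticulum opens the thin filament through the troponin complex, and mitochondria that burn mainly fatty acids supply the ATP. The aortic root sits on the muscle of the left ventricular outflow tract and lies against the atrial walls. Atrial and ventricular muscle use different light chains of myosin, which makes these genes markers of the chamber.

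Depth, with M for mega, was 8.4 to 15.5 M reads in the 7 libraries (median 11.5) and 8.9 to 27.3 M in the other 14 (median 14.8). All 6 libraries above 17 M reads were among the 14. Dcn, a proteoglycan gene of valve interstitial cells, stood at 2580 to 5373 FPKM (fragments per kilobase of gene and M fragments) in all 21 libraries. Notch1 was 26.6 to 46.5 FPKM in the 4 WT libraries and 19.4 to 50.0 in the 17 N1het libraries, which overlap throughout, so its level does not check the genotype. Between muscle-rich and other libraries Notch1 stood at 30.9 ± 7.14 and 32.1 ± 9.40 FPKM (SD, n = 7 and 14) and Esrra at 1.88 ± 0.516 and 1.69 ± 0.763.

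The split itself was wide. The mean of 11 heart muscle cell markers on the log2(FPKM + 1) scale ran from 5.38 in N1het stenosis XCT790 1 to 7.44 in N1het stenosis 2, against 0.85 in N1het stenosis 1 to 3.00 in N1het healthy 3 among the others. Just inside and just outside the split therefore lie N1het stenosis XCT790 1 at 5.38 and N1het healthy 3 at 3.00. Tnnt2 (ENSMUSG00000026414), the cardiac troponin T that ties troponin to the thin filament, stood at 1673 FPKM in WT 4, at 1398, 571 and 1859 in N1het healthy 2, 5 and 6, at 948 in N1het healthy XCT790 5, at 1431 in N1het stenosis 2 and at 918 in N1het stenosis XCT790 1. The 14 others had 27.7 to 288 FPKM with a median of 115, so no value overlapped. Myl2 (ENSMUSG00000013936), the regulatory light chain of ventricular myosin, reached 359 FPKM in N1het healthy 2 and 231 in N1het stenosis 2, and stood at 121, 97.2, 47.8 and 29.8 in N1het healthy 5, N1het healthy XCT790 5, N1het stenosis XCT790 1 and N1het healthy 6. WT 4 had only 0.566 FPKM of Myl2, inside the 0.0984 to 19.1 of the other 14. Ckmt2 (ENSMUSG00000021622), the creatine kinase of muscle mitochondria, was 113 FPKM in N1het healthy 2 and 0.646 in WT 4, with 4.36 to 70.2 in the other 5 and up to 13.4 outside the set.

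WT 4 thus belongs to the muscle-rich libraries through Tnnt2 and other genes, not through Myl2 or Ckmt2. By the mean of Myl2, Tnnt2 and Ckmt2 alone it stood at 4.02 on the log2 scale, below the 4.82 of N1het healthy 3. Myh6, the fast myosin heavy chain of the adult mouse heart, was 175 FPKM in WT 4 and Tnni3, cardiac troponin I, 168. The highest levels of these 2 genes among the 14 others were 36.2 and 27.0 FPKM.

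**Figure D1:**
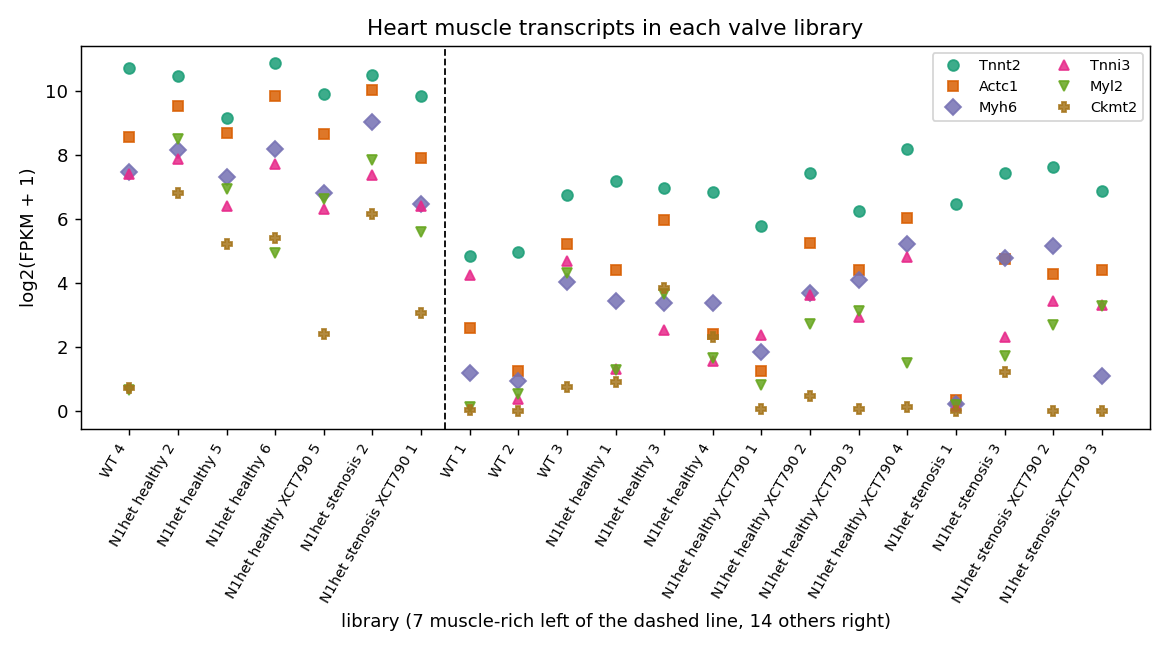
Each point is the level of a heart muscle gene in a library, as log2(FPKM + 1), with the 7 muscle-rich libraries left of the dashed line and the 14 others right of it. Tnnt2, Actc1, Myh6 and Tnni3 are high in all 7, while Myl2 and Ckmt2 are near 0 in WT 4.

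Differences between the classes were taken from a limma fit on log2(FPKM + 1) with the labelled group as a covariate, over the 14966 genes with a mean of 1 FPKM or more. A gene counts as called where the adjusted p of that fit is under 0.05, used here only as a threshold for describing. It called 110 genes higher in muscle-rich libraries (0.735% of those tested) and 6 lower (0.0401%), beside 1322 genes (8.83%) at an unadjusted p under 0.05 in either direction. In 45 genes (0.301%) all 7 libraries lay above all 14, and in 0 genes all 7 lay below. Of the 110 genes, 41 belong to the 63 listed genes of the sarcomere, Z-disc and calcium cycle, and 103 were higher in muscle-rich libraries within each of the 5 labelled groups, as were 4.44% of all genes tested. Listed genes pass the filter on low levels largely through the muscle-rich libraries themselves, so counts of tested members describe these and not all members. The same 63 genes took 0.808% to 2.99% of the reads in the muscle-rich libraries (median 1.19%) and 0.132% to 0.319% in the others (median 0.198%).

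Thick filament and M-band genes were among the furthest apart. Of 16 listed genes 14 were tested, all 14 were higher and 11 called, with a median log2 difference of 3.03 beside 0.00 over all genes tested. Myh6 stood at 233 ± 149 FPKM (SD, n = 7) against 12.5 ± 12.2 (n = 14), a log2 difference of 4.53 ± 0.68 (SE), with N1het stenosis 2 highest at 520 and N1het stenosis XCT790 1 lowest at 87.7. Myl3, the essential light chain of ventricular myosin, differed by 4.63 ± 0.78. Ttn, the giant spring protein titin that spans from Z-disc to M-band, was 6.72 to 100 FPKM (median 15.1) against 0.611 to 3.83 (median 1.54), with no overlap. N1het stenosis 2 held the 100 FPKM, with N1het healthy 2 next at 46.2. Myl7, the regulatory light chain of atrial myosin, was as far apart as Myl3 on average, at 4.61 ± 1.21, but it was not called, and it was high in only some of the 7 libraries. Myh7b (at most 5.18 FPKM in any library) and Myom3 (at most 0.334) were too low to be tested.

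Of the 11 thin filament genes all were tested and higher, 6 of them called, with a median log2 difference of 2.34. Actc1 (ENSMUSG00000068614), cardiac α-actin, showed the widest difference of any gene tested, 5.17 ± 0.76. It stood at 378 FPKM in WT 4, at 738, 410 and 908 in N1het healthy 2, 5 and 6, at 1034 in N1het stenosis 2, at 400 in N1het healthy XCT790 5, at 238 in N1het stenosis XCT790 1, and at 0.286 to 64.5 (median 20.1) in the 14 others. Every muscle-rich library thus had more than 3 times the Actc1 of any other. Tnni3 differed by 4.54 ± 0.56 and Tnnc1, the calcium sensor of the troponin complex, by 4.42 ± 0.54. Tpm1, the tropomyosin that covers the myosin sites on actin, differed less, by 2.34 ± 0.26, and the 14 others had a median of 29.0 FPKM.

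The promoter of Actc1 is shown because the gene has the widest difference and because it holds a CArG box, the site of serum response factor in many muscle genes. The window covers the 250 bases before the gene's start on the minus strand of chr2:114052876-114053125 (RefSeq, GRCm38.p6, which is not the build of the deposited values), and capitals mark the CArG box at bases 47 to 38 before the start.

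Actc1: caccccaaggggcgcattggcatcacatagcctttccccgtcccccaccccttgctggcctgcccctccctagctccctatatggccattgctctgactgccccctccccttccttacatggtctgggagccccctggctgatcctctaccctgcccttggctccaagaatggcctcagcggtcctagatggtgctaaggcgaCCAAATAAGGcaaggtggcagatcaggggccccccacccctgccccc

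Windows of this kind were searched on both strands for the M-CAT element, spelled CATTCC. The TATA box, spelled TATAAA, the CArG box and the MEF2 box were searched too, and these last 3 can overlap each other in their A and T stretches. Among all 32851 RefSeq windows, 1.47% held a CArG box, 2.92% a MEF2 box, 12.6% an M-CAT element and 12.4% a TATA box. Of the 63 sarcomere, Z-disc and calcium genes, 49 had a window in the table. Their 68 windows held a CArG box in 14.7%, a MEF2 box in 13.2%, an M-CAT element in 20.6% and a TATA box in 7.35%. A match is a description of the letters and not a sign of binding.

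Z-disc and costamere genes, which anchor actin and join the sarcomere to the membrane, were tested in all 21 and higher in 20, with 15 called and a median of 2.08. Csrp3, the muscle LIM protein of the Z-disc, was 35.9 FPKM in WT 4 and 77.2 to 218 in the other 6 muscle-rich libraries, against at most 26.2 elsewhere (log2 difference 4.68 ± 0.71). Ankrd1, a stretch-responsive partner of titin, differed by 4.47 ± 0.55 and was highest in N1het stenosis 2 at 352 FPKM. The small heat shock gene Hspb7 and the titin cap gene Tcap differed by 2.58 ± 0.32 and 2.60 ± 0.44. Cryab, the chaperone αB-crystallin, differed by 0.96 ± 0.21 on a high level elsewhere (median 147 FPKM), and Pdlim5, a scaffold of the Z-disc, by -0.08 ± 0.16 (56.8 ± 11.8 FPKM in the 7 libraries, with 58.4 as the median of the others).

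**Figure D2:**
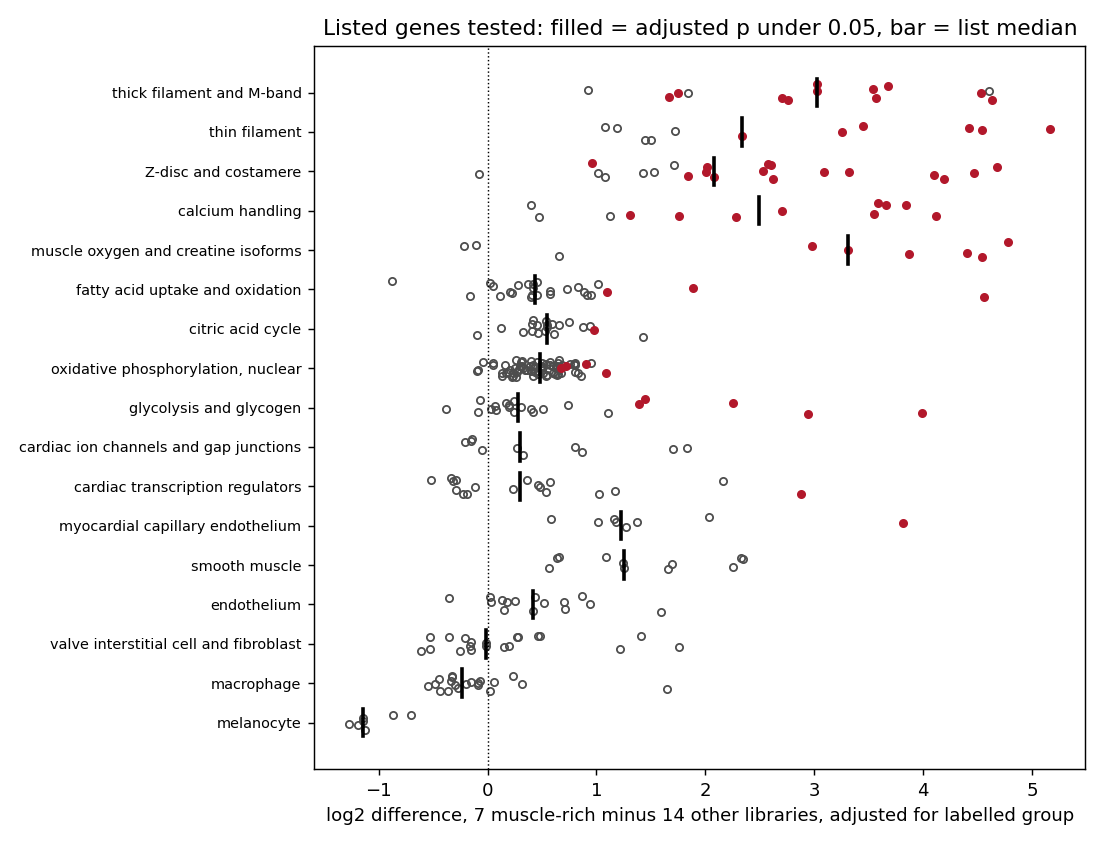
Each point is a tested gene of a list, placed by its group-adjusted log2 difference between the 7 muscle-rich and the 14 other libraries, filled where called, with a bar at the list median. Sarcomere, Z-disc, calcium and muscle isoform lists have medians from 2.08 to 3.31, oxidative metabolism lists from 0.44 to 0.54, and the fibroblast list lies at -0.01.

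Calcium cycle genes were tested in 12 of 15, all higher and 9 called, with a median of 2.49. Pln, phospholamban, the brake on the calcium pump, was 45.5 to 212 FPKM (median 110) against 0.602 to 44.9 (median 6.5), a difference of 3.66 ± 0.51 with N1het healthy 3 just under the lowest muscle-rich library. Atp2a2, the calcium pump SERCA2 itself, differed by only 1.31 ± 0.21, at 169 ± 66.9 FPKM against a median of 64.8. The reservoir genes Casq2 and Hrc and their anchor Trdn differed by 3.55 ± 0.43, 3.59 ± 0.45 and 3.84 ± 0.43, each from a median under 0.3 FPKM in the others. Adrb1, the β1-adrenergic receptor, Cacnb2 and Adra1a were too low to be tested, at no more than 4.81, 2.06 and 0.880 FPKM in any library.

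Genes of oxygen, energy and fuel supply followed in 2 tiers. In the first, muscle isoforms of oxygen and creatine handling were higher in 7 of 9, with 6 called and a median of 3.31. Cox6a2, the muscle subunit of cytochrome c oxidase, stood at 150 to 478 FPKM (median 195) against 0.0937 to 34.8 (median 6.91), a difference of 4.78 ± 0.59 without overlap. Mb, the oxygen store myoglobin, was 700 FPKM in N1het healthy 2 and 655 in N1het stenosis 2, 97.2 to 440 in the other 5 and 0.276 to 37.5 elsewhere (4.54 ± 0.60). Cox7a1 and Cox8b, further muscle subunits of that enzyme, differed by 4.40 ± 0.53 and 3.87 ± 0.67. Fabp3, the fatty acid carrier of muscle, differed by 4.56 ± 0.56 (102 to 478 FPKM against 0.854 to 35.9), and among the sugar-splitting enzymes the muscle isoform Pgam2 by 3.99 ± 0.52.

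In the second tier, lists of oxidative metabolism and sugar breakdown had far lower medians. The fatty acid and sugar lists include Fabp3 and Pgam2 of the first tier, which hold their highest differences, 4.56 and 3.99. Of 76 nuclear genes of oxidative phosphorylation 73 were higher, the median being 0.48, and 4 were called, the ATP synthase genes Atp5b, Atp5a1, Atp5f1 and Atp5g1 (0.67 ± 0.15, 0.72 ± 0.13, 0.90 ± 0.19 and 1.09 ± 0.21), named after their values were seen. Of 20 genes on the citric acid cycle list 19 were higher, the median being 0.54. The 1 called was Mdh1, the cytosolic and not the mitochondrial malate dehydrogenase, at 0.98 ± 0.17. Fatty acid uptake and oxidation genes were higher in 24 of the 26 tested of 27, with 3 called and a median of 0.44. Lpl, which frees fatty acids from lipoproteins, stood at 69.7 ± 43.4 FPKM in the 7 libraries and the fatty acid transporter Cd36 at 49.7 ± 32.1, with 28.5 and 18.4 as medians of the others, and neither was called. Sugar breakdown genes were higher in 19 of 22 with 5 called and a median of 0.27. Ldhb, the lactate dehydrogenase subunit favoured by heart, differed by 1.39 ± 0.25 and Ldha, the subunit of glycolytic tissue, by 0.03 ± 0.14.

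Mitochondrially encoded genes were all higher, 6 of 6 listed genes in the table, with 0 called. Of these, 4 were at an unadjusted p under 0.05 (limma; 8.83% of all genes), and the difference of the list shrank with depth in the model. Their median log2 difference was 1.97, and 0.44 with log2 depth as a covariate or 0.39 within the 15 libraries at or under 17 M reads. mt-Co2, a cytochrome c oxidase subunit, ranged from 2297 FPKM in N1het healthy 2 to 27315 in WT 4, and reached 20309 in WT 3 of the other class. All mitochondrial genes in the table took 0.851% to 8.40% of the reads in the 7 libraries and 0.0581% to 5.64% in the 14. Nuclear oxidative phosphorylation genes had a median of 0.36 with depth as a covariate and 0.28 within the 15 libraries, and thick filament genes 2.86 and 3.01.

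Regulators and channels of heart muscle had list medians nearer to 0, with few or no genes called. Of 23 listed transcription regulators 18 were tested, 10 higher and 8 lower, 5 at an unadjusted p under 0.05 (8.83% of all genes), with a median of 0.30 that turned to -0.19 over genes with a mean of 5 FPKM or more. Smyd1, a methyltransferase of sarcomere assembly, was the 1 called, at 2.88 ± 0.37, with all 7 libraries above all 14. Tbx20, which shapes chambers and valves, stood at 239 ± 76.4 FPKM in the 7 libraries with a median of 308 in the others, and Gata4 at 58.5 ± 24.6 with 67.6. Nkx2-5, a founding regulator of heart muscle, reached at most 3.08 FPKM in any library. Of 21 ion channel and gap junction genes 10 were tested and 0 called by limma, 3 of them at an unadjusted p under 0.05, with a median of 0.30 that turned to -0.10 over genes of 5 FPKM or more. Gja1, connexin 43, stood at 26.4 ± 9.96 FPKM with a median of 22.1 elsewhere. Of 14 conduction system genes 7 were tested and 0 called, 2 of them at an unadjusted p under 0.05.

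The 7 libraries differed among themselves in the chamber their light chains mark. Myl7, the atrial regulatory light chain, was 1209 FPKM in N1het healthy 6, 608 in WT 4 and 534 in N1het stenosis XCT790 1. It was 33.4 in N1het healthy XCT790 5, 5.01 in N1het healthy 2, 0.311 in N1het healthy 5 and 0.191 in N1het stenosis 2. Of the summed FPKM of Myl7 and Myl2, Myl7 therefore held 99.9%, 97.6% and 91.8% in WT 4, N1het healthy 6 and N1het stenosis XCT790 1. It held 25.6% in N1het healthy XCT790 5, 1.38% in N1het healthy 2, 0.256% in N1het healthy 5 and 0.0828% in N1het stenosis 2. The set thus divides into 3 libraries led by the atrial light chain, 3 led by the ventricular one and 1 with both.

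The essential light chains set the same 3 libraries apart, with N1het healthy XCT790 5 now beside the ventricular-led ones. Myl4, the atrial form, held 79.6%, 67.3% and 50.2% of the summed FPKM of Myl4 and Myl3 in WT 4, N1het healthy 6 and N1het stenosis XCT790 1, and 0.221% to 4.46% in the other 4. Sln, sarcolipin, the atrial inhibitor of SERCA2, was 145, 76.1 and 56.4 FPKM in N1het healthy 6, WT 4 and N1het stenosis XCT790 1, 33.2 in N1het healthy XCT790 5, 8.32 in N1het stenosis 2 and listed at 0 in N1het healthy 2 and 5. Mybphl, a myosin binding protein of atrial muscle, was 28.9, 21.7 and 7.15 FPKM in the first 3 and 0 to 0.736 in the other 4. Nppa, the gene of atrial natriuretic peptide, departed from this order, at 169 FPKM in WT 4, 81.0 in N1het stenosis 2, 30.2 in N1het healthy 6, 16.2 in N1het stenosis XCT790 1, 7.47 in N1het healthy 2 and under 1 in the other 2, with at most 1.21 elsewhere. Myh7, the slow heavy chain, made up 1.83% to 11.2% of the summed FPKM of Myh6 and Myh7, highest in N1het healthy XCT790 5. The light chain division did not follow the labelled groups: the 3 atrial-led libraries come from 3 labelled groups, and the 3 ventricular-led ones from 2.

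**Figure D3:**
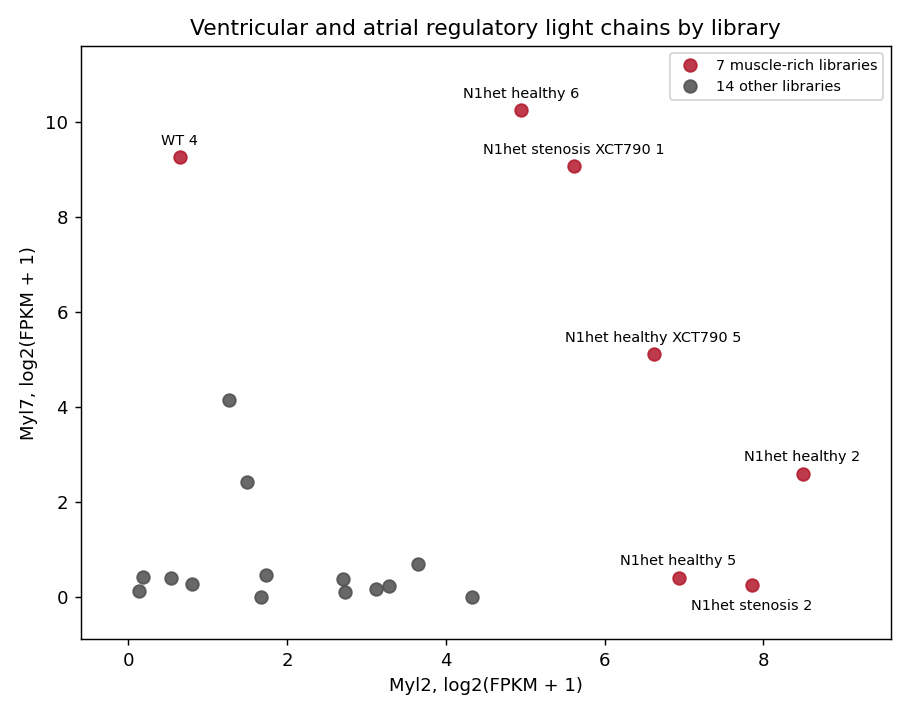
Each point is a library, with the ventricular light chain Myl2 on the x axis and the atrial light chain Myl7 on the y axis, both as log2(FPKM + 1). WT 4, N1het healthy 6 and N1het stenosis XCT790 1 stand high on the Myl7 axis (608, 1209 and 534 FPKM), while N1het healthy 5 and N1het stenosis 2 lie at the bottom (0.311 and 0.191 FPKM).

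Promoter windows of these 2 light chains are shown because the genes part the 7 libraries. Both windows are the 250 bases before a start in RefSeq (GRCm38.p6), for Myl7 on the minus strand of chr11:5898783-5899032 and for Myl2 on the plus strand of chr5:122092474-122092723, with matches to the 4 motifs in capitals.

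Myl7: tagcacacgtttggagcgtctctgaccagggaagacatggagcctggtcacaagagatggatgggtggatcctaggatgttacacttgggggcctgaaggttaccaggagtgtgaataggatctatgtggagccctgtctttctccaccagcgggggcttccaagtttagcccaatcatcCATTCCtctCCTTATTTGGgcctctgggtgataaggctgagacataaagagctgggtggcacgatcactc

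Myl2: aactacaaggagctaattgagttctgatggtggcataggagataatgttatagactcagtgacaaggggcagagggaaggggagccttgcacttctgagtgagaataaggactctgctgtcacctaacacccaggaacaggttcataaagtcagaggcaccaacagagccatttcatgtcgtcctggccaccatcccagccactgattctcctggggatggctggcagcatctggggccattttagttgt

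In Myl7 the capitals mark an M-CAT element at bases 70 to 65 and a CArG box at bases 61 to 52 before the start. The Myl2 window holds 0 matches, and a second RefSeq start of Myl2 has a TATA box on the minus strand at bases 216 to 211. Which start of Myl2 is used in these libraries was not tested, so the 0 matches describe the letters of this window only.

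Genes of wall stress split the set in another way. Acta1, skeletal α-actin, which the heart makes again under load, was 206 FPKM in N1het stenosis 2, 9.45 in N1het healthy 5, 1.62 in N1het healthy 6 and 0 to 0.279 in the other 4, and at most 0.465 in the 14. Its log2 difference of 1.72 ± 0.67 was 0.64 without N1het stenosis 2. Nppb, the gene of the natriuretic peptide BNP, was 38.7 FPKM in N1het stenosis 2 and 0 to 2.20 in the other 6. Among the 14 other libraries it was 11.2 and 30.5 FPKM in N1het stenosis 1 and 3 and 34.6 in N1het stenosis XCT790 2. Its high levels thus lie in stenotic libraries, of which only N1het stenosis 2 is muscle-rich. Not all stenotic libraries were high, since in the N1het stenosis XCT790 group Nppb was 0 at lowest and 2.88 at the median. Between the classes it differed by -0.26 ± 0.50, with leave-one-out values of -0.49 to 0.33.

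A microRNA gene was among the widest differences outside the lists. The row mmu-mir-208b (ENSMUSG00000077928) is the hairpin of miR-208b, which lies within the slow myosin gene Myh7, and this total RNA protocol reads its precursor rather than the mature form. It had 293 reads in the 82.9 M of the 7 libraries and 0 in the 225.3 M of the 14 others, which allows up to 3 reads there, counting error only. WT 4 held 256 of the 293 reads, N1het stenosis 2 held 23, N1het healthy 6 held 9, N1het healthy XCT790 5 held 4, N1het healthy 5 held 1, and the remaining 2 held 0. Its fitted difference on the log2(FPKM + 1) scale, which is no bound where a class is at 0, was 3.21 ± 0.72, and 2.10 without WT 4. Mature forms from RefSeq (GRCm38.p6) are shown 5′ to 3′, with the seed, bases 2 to 8, in capitals, to set miR-208b beside its relatives in Myh6 and Myh7b.

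mmu-miR-208b-3p: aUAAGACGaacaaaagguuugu

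mmu-miR-208a-3p: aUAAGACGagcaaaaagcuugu

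mmu-miR-499-5p: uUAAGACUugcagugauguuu

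The 2 forms of miR-208 share the seed and 19 of 22 bases, and no other of the 1679 mature names in the table has that seed, while miR-499 has a seed of its own. As with mir-208b, most reads of 2 other muscle hairpins within the 7 libraries lay in a single library. mmu-mir-1-2 had 75 reads in 2 of the 7 libraries, 65 of them in N1het healthy XCT790 5, and 253 reads in 8 of the 14, 142 of them in N1het healthy XCT790 2. mmu-mir-133a-2 had 247 reads in 4 of the 7 libraries, of which WT 4 held 242, and 2 reads in 2 of the 14.

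Of the 110 called genes, 44 stood in no list, 10 of these with model names only. The 12 largest with a gene name, with mir-208b the second, were led by Adprhl1 (3.45 ± 0.49), a heart protein of the ADP-ribosylhydrolase family. Next came the elongation factor gene of muscle and neurons Eef1a2 (3.20 ± 0.29), the calcineurin regulator Rcan2 (3.13 ± 0.54), the light chain gene Myl1 (3.11 ± 0.41), the mitochondrial Chchd10 (3.10 ± 0.45), the lipid droplet gene Fitm1 (3.10 ± 0.48), the chemokine gene Ccl21c (3.06 ± 0.69), Txlnb (2.90 ± 0.42), the phosphatase inhibitor Ppp1r14c (2.85 ± 0.35), Popdc2 (2.40 ± 0.53) of the Popeye proteins of muscle membranes, and the splicing factor Rbm24 (2.27 ± 0.29). Eef1a2 was 3.40 to 15.7 FPKM in the 7 libraries and at most 1.19 elsewhere. Myl1 was highest in N1het healthy 6 and WT 4, at 38.9 and 17.8 FPKM, and at most 0.232 outside the set. Ccl21c belongs to a family of near-identical copies between which reads can be split, so its value is uncertain.

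Few genes were lower. Of the 6 called, 1 has a model name only, and the others were Fosl2, a transcription factor of the AP-1 family (26.9 ± 15.9 against 57.0 ± 25.2 FPKM, difference -1.33 ± 0.26), Itih5, which binds hyaluronan (-0.95 ± 0.20), the proteoglycan gene Sdc3 (-0.94 ± 0.20), Etv1 of the ETS factors (-0.83 ± 0.18) and the homeobox gene Meox1 (-0.73 ± 0.16). These 5 were lower in muscle-rich libraries within each of the 5 labelled groups, as were 3.83% of all genes tested, and their ranges overlapped those of the other class. Without WT 4 the count called lower was 0 in place of 6, and 1 remained with depth as a covariate. Next by p came Slc7a5, Cd44, Mgat2, Slc7a8, Cacng7, Thbs1 and Ace, with log2 differences of -1.54 to -0.79, none called.

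The valve cell lists held 0 called genes between the classes, where 8.83% of all genes tested had an unadjusted p under 0.05. Of 20 valve interstitial cell and fibroblast genes, 9 were higher and 11 lower with 0 called (limma; 5 at an unadjusted p under 0.05) and a median of -0.01, which changed sign with the setting and lay between -0.14 with voom and 0.25 within the 15 libraries at or under 17 M reads. Dcn stood at 3892 ± 984 FPKM in the 7 libraries with a median of 4382 in the others. Bgn, the matrix proteoglycan biglycan, and Prg4, lubricin, had 1509 ± 173 and 373 ± 213 FPKM with medians of 1739 and 486 elsewhere. Of the 18 tested valve matrix genes 13 were lower and 0 called, with 4 at an unadjusted p under 0.05. Their median was -0.21, and 0.0004 within the 15 libraries at or under 17 M reads. Of 20 macrophage genes 15 were lower and 0 called, 1 at an unadjusted p under 0.05. The macrophage median was -0.23, and -0.04 without N1het stenosis XCT790 1. It was -0.59 with log2 depth as a covariate and -0.42 with the replicate number as a block. Of 15 endothelial genes 14 were higher (median 0.42, and 0.23 without N1het stenosis XCT790 3) and 0 called, 5 at an unadjusted p under 0.05.

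Markers of tissues near the valve had higher list medians in the muscle-rich libraries, carried by different libraries and overlapping the other class, and their part in any difference above was not tested. Capillary genes of heart muscle, with all 8 tested members of 10 higher, summed to 78.6 to 344 FPKM in the 7 libraries (median 142) and to 6.21 to 375 in the 14 (median 19.9). Fabp4, the lipid carrier of capillaries and fat, was the called member, at 35.8 to 292 FPKM (3.82 ± 0.85), but WT 3, outside the set, had 236 FPKM. Smooth muscle genes were higher in all 11 tested, with 0 called, 8 at an unadjusted p under 0.05 (8.83% of all genes) and a median of 1.25. Myh11, the smooth muscle heavy chain, was 398 FPKM in WT 4, 163 in N1het stenosis XCT790 1, 56.2 in N1het stenosis 2, 33.5 in N1het healthy 6 and 0.598 to 1.28 in the other 3, and 209 in N1het healthy XCT790 2 outside the set. Of the 12 skeletal muscle genes in the table only Casq1 and Mybpc2 reached a mean of 1 FPKM, both called. Of the other 10, Actn3, the fast fibre α-actinin, was highest, at 6.04 FPKM in N1het stenosis XCT790 1, with up to 3.92 outside the set. Myh2, Myh8, Mylpf, Tnnt3, Tnni2, Pvalb, Atp2a1, Ryr1 and Myog stood at no more than 2.05 FPKM in any muscle-rich library, and Tnnt3 reached 5.63 among the others.

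Mesothelial genes, which mark the outer lining of the heart, were led by N1het stenosis XCT790 1. Their sum was 1147 FPKM there, 4.39 or more in the other 6 (median of the 7 libraries 12.9) and 0.570 to 25.2 in the 14. The median log2 difference of the 7 tested genes was 1.69, and 0.77 without that library. Upk3b was 460 FPKM in N1het stenosis XCT790 1, 15.1 in N1het healthy 6, 8.71 in WT 4 and 0.0370 to 0.115 in the other 4. Msln, mesothelin, the called member, differed by 2.78 ± 0.60, and by 2.04 without that library. The 3 libraries led by the atrial light chain thus held the 3 highest Upk3b levels of the set. Red cell genes were higher in all 5 tested with 0 called and 5 at an unadjusted p under 0.05 (8.83% of all genes). Their median log2 difference was 2.33, and 1.45 with log2 depth as a covariate. The globin gene Hbb-b2 ranged from 43.1 to 776 FPKM in the 7 libraries, with up to 266 in the others. Melanocyte genes were lower in all 7 with 0 called, 3 at an unadjusted p under 0.05 and a median of -1.14. The melanocyte median was -0.56 without WT 4, -1.44 with log2 depth as a covariate and -1.72 with the replicate number as a block. WT 4 was the lowest, with Dct, a pigment enzyme gene, at 5.82 FPKM against 40.7 to 201 in the other 6 libraries. Pericyte, Schwann cell and lymphocyte lists had medians of -0.05, -0.20 and -0.30, adipocyte genes 1.21 over 3 tested, immediate early genes -0.23 and ribosomal protein genes 0.21, all with 0 called and 0, 0, 0, 2, 0 and 3 at an unadjusted p under 0.05. The adipocyte median was 0.55 without N1het stenosis XCT790 1, the lymphocyte median 0.08 without N1het healthy 3 and 0.03 with the replicate number as a block, and the pericyte median 0.18 within the 15 libraries. The Schwann cell median was -0.01 without N1het healthy XCT790 5, the immediate early median -0.06 without WT 4 and the ribosomal median -0.03 within the 15 libraries.

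**Figure D4:**
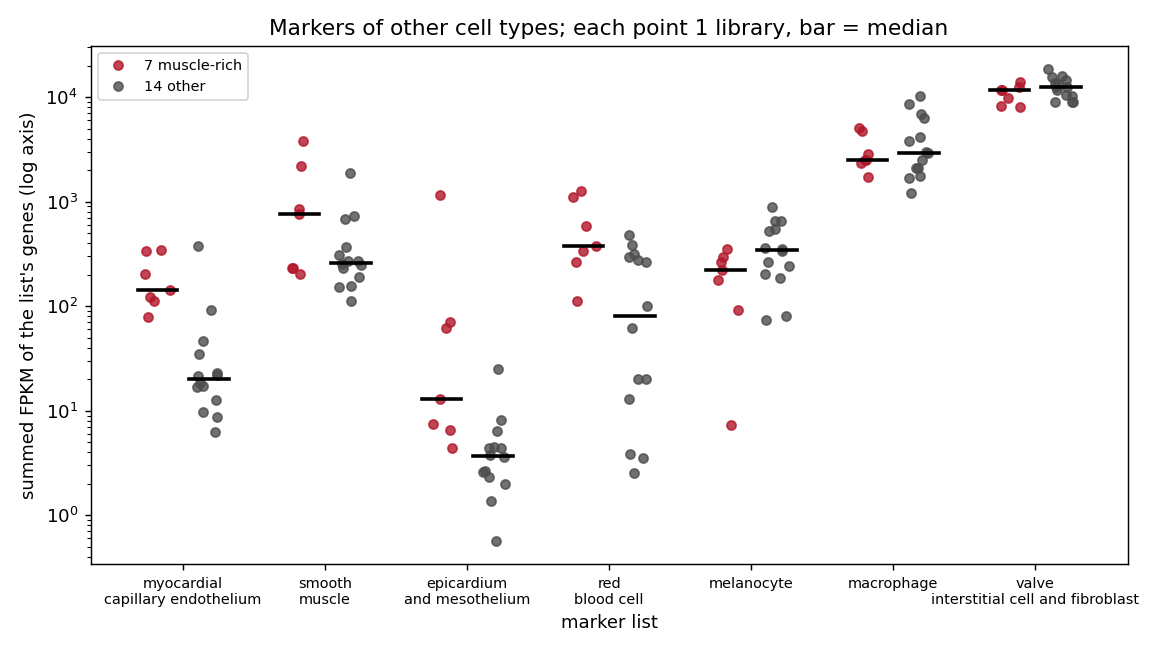
Each point is a library's summed FPKM over a marker list, on a log axis, with red points for the 7 muscle-rich and grey points for the 14 other libraries and a bar at each median. Capillary sums have medians of 142 and 19.9, N1het stenosis XCT790 1 stands alone at 1147 for the mesothelial list, and the fibroblast sums overlap.

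Whether the muscle class was spread evenly over the study's groups was tested on the counts of libraries. It took 1 of 4 WT libraries and 3 of 6 N1het healthy ones. With XCT790 it took 1 of 5 in healthy and 1 of 3 in stenotic valves, and 1 of 3 N1het stenosis libraries with solvent. No unevenness was detectable at this number of libraries (Fisher's exact test of the 2 by 5 table, two-sided, p = 0.919). Muscle-rich libraries had 11.8 ± 2.75 M reads (SD, n = 7) and the others 16.1 ± 6.09 (n = 14). The difference within groups was -0.39 on the log2 scale (exact permutation of the class within groups, 3600 arrangements, two-sided, p = 0.0856), and leaving out single libraries gave p from 0.0321 to 0.189, under 0.05 without N1het healthy 3 (0.0433), N1het stenosis XCT790 1 (0.0425) or N1het stenosis XCT790 3 (0.0321).

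The muscle class was then set beside the study's own comparisons, of which 3 share the N1het healthy libraries. Over the 58 tested sarcomere, Z-disc and calcium genes, the median log2 difference of N1het healthy XCT790 from N1het healthy was -0.76 without regard to the class, 0.00 with the class as a covariate and 0.14 within the 14 other libraries. For N1het healthy against WT it was 0.75, 0.28 and 0.08, and for N1het stenosis against N1het healthy -0.25, 0.13 and -0.15. For XCT790 in stenotic valves it was -0.34, -0.34 and 0.12, where the first 2 are equal because 1 of 3 libraries is muscle-rich on each side. These 58 genes include genes that chose the class. The shift of their medians and the smaller errors with the class in the model are therefore descriptions and no test of the class. The typical standard error of these genes fell with the class in the model, from 0.87 to 0.55 for XCT790 in healthy valves and from 1.17 to 0.73 in stenotic valves, beside 0.41 and 0.41, and 0.55 and 0.54, over all genes. limma called 0 of the 58 in each contrast and each of the 3 fits, with 0 to 4 at an unadjusted p under 0.05. Over all genes tested the same fits held 397 to 1522 at that p. The 4 came from XCT790 in stenotic valves with the class as a covariate, where 518 of 14966 genes passed it.

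Genes of oxidative metabolism, which ERRα is known to drive, had medians that also shifted with the class in the XCT790 contrast of healthy valves. Nuclear oxidative phosphorylation genes had a median of -0.18 without the class, with 19 of 76 higher, -0.02 with the class as a covariate, with 36 higher, and 0.14 within the 14 libraries, with 49 higher. Fatty acid genes had -0.22, -0.08 and 0.07, citric acid cycle genes -0.20, -0.05 and 0.20, and the muscle isoforms -1.01, -0.06 and 0.23. The muscle isoforms summed to 595.5 to 1974 FPKM in the 7 muscle-rich libraries and to 137.7 to 264.5 in the 14. The isoforms thus vary with the class, so the shift of their median with the class in the model is a description. Its cause was not tested. Over all genes the medians were 0.03, 0.04 and 0.07. None of these genes was called in any of the 3 fits. At an unadjusted p under 0.05 the fits held 2, 2 and 2 of the 76 oxidative phosphorylation genes and 0 to 2 of each other list. Over all genes they held 397 and 449 of 14966, and 506 of 14947 within the 14 libraries. In stenotic valves the oxidative phosphorylation medians were 0.03, 0.03 and 0.01.

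**Figure D5:**
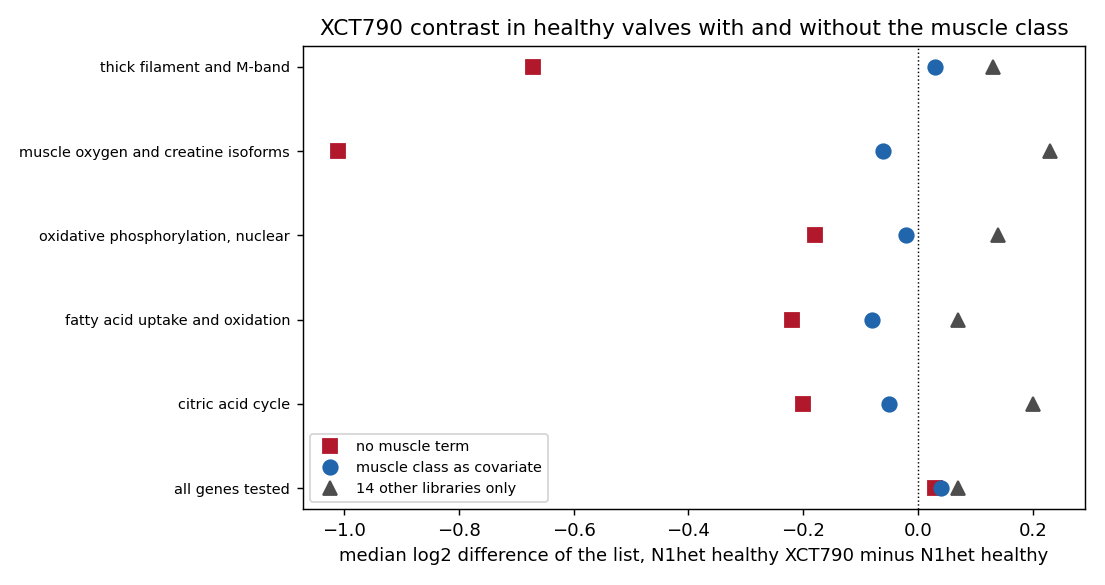
Points are median log2 differences of N1het healthy XCT790 from N1het healthy libraries over the tested genes of each list, from a fit without the muscle class (squares), with it (circles) and within the 14 other libraries (triangles). The muscle isoform list lies at -1.01, -0.06 and 0.23, and all genes tested at 0.03, 0.04 and 0.07. The muscle isoforms vary with the class itself, so their shift with the class in the model is a description, and its cause was not tested.

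For N1het stenosis against N1het healthy, limma called 5 genes without it (0.0334% of 14966), 4 with it (0.0267%) and 0 within the 14 libraries, where 2 stenosis libraries remain, beside 1437, 1522 and 1472 at an unadjusted p under 0.05. The 4 called with the class, Coch, Shisa2, Isg20l2 and Rara, were all among the 5. Nppb was the fifth, with a log2 difference of 4.11 ± 0.73 (limma adjusted p = 0.0384) without the class and 4.07 ± 0.75 (0.0556) with it, higher in all 3 N1het stenosis libraries (11.2 to 38.7 FPKM) than in all 6 N1het healthy ones (0 to 2.20). The N1het against WT contrast and both XCT790 contrasts gave 0 called genes by limma with the class, and 1239, 449 (healthy) and 518 (stenotic) at an unadjusted p under 0.05. With voom on recovered reads, 0 were called in each of the 4 contrasts. Within the 14 libraries 1 gene, AC111093.1, was called lower in N1het healthy than in WT (-2.70 ± 0.36, limma adjusted p = 0.0381; 0.00669% of 14947).

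The authors' deposited table marks changed genes for 5 comparisons, and the labels do not say by which test. Of the 63 sarcomere, Z-disc and calcium genes it marks 1, Ankrd23, for N1het stenosis against WT, where 1.35% of all 20872 genes are marked, and 0 for the other 4 comparisons, where 0.666%, 1.26%, 0.125% and 0.268% are marked in the authors' deposited table.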

How the data were processed

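Mouse aortic valves were lysed, their RNA taken up on Qiagen RNeasy Micro columns and amplified with the NuGEN Ovation RNA-Seq V2 system, per the labels' protocols. HISAT2, SAMtools, Picard, FastQC and the build mm9 are named in the submitters' processing notes, with versions, counting program and strand setting not given in the sources used here. The authors deposited FPKM for 20872 genes and 0 or 1 marks of changed genes (a code, other than a measured value), per the file headers. Groups follow the sample titles. Whole reads were recovered from the FPKM steps: 100% of nonzero values came out whole within 0.01 reads, so depth is known (8.4 to 27.3 M). Intervals and limits cover counting error only, since reads from amplified cDNA are not separate molecules.

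limma 3.58.1 in R 4.3.3 (statmod 1.5.0) was fitted to log2(FPKM + 1), over 14966 genes whose mean reached 1 FPKM, with 5 group means and the muscle class, trended and robust variances and Benjamini-Hochberg adjustment over all genes. A fold on this scale understates low genes. Exact permutation and Fisher tests used Python 3.11.15. Steps were tested on simulated data. The members and the 32 gene lists (505 symbols, 487 in the table, 6 by identifier) were chosen with earlier results of these data known. Named genes are Myl2, Tnnt2, Ckmt2, Notch1 and Esrra, up to 6 members of each muscle, metabolic or chamber list by level in the 7 libraries, up to 4 of each other list, and the 12 largest and 12 smallest differences among called genes outside the lists (where fewer passed, those of smallest p), without model names. Smyd1, the called Atp5 genes, Ankrd23 and genes given only as too low were named after their values were seen. Where 377 rows repeat a symbol, the highest was used. Alternatives were the pseudocount (0.1), filters (none, 5 FPKM), median-of-ratios and upper-quartile scaling, a replicate block, the agent field, depth as a covariate, voom, other muscle terms, leaving out each library and, chosen after seeing the data, the 15 libraries at or under 17 M reads. Replicate numbers carry no shared animal or batch in the labels.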

Additional observations from a re-analysis of the deposited data

Results flagged for a closer look

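A single library lay far from the other 6 muscle-rich ones in 9 of the 179 quantities and named genes examined, by Dixon's gap over the range at the 95% level for 7 values. Chance flags about 1 in 20, which over 179 is about 9. N1het stenosis XCT790 1 had the highest level of the mesothelial gene Lrrn4, 172 FPKM against 0 to 5.00, the highest of the fast skeletal troponin gene Tnni2, 1.5 against 0 to 0.358, and the lowest of Etfb, an electron carrier of fatty acid oxidation, 63.2 against 76.3 to 87.7. WT 4 had the lowest level of the melanocyte genes Mlana, 0.763 FPKM against 31.2 to 74.6, and Si, 0.177 against 7.37 to 32.4, and of the complex III gene Uqcr10, 174 against 303 to 337. N1het stenosis 2 had the highest level of Nppb, 38.7 FPKM against 0 to 2.20, of the muscle regulator Mef2a, 60.6 against 47.4 to 52.2, and of the lymphocyte gene Nkg7, 2.06 against 0 in all others.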

How the results depend on the processing

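The 110 genes called higher in muscle-rich libraries became 62 over genes of 5 FPKM or more (62 of them shared), 71 with a replicate block (66 shared) and 68 within the 15 libraries at or under 17 M reads (62 shared), and 84 to 129 with single libraries left out. The 6 called lower became 1 with the replicate block, 12 with groups from the agent field, 1 with depth as a covariate and 10 with voom, and 0 to 18 with single libraries left out: 0 without WT 4, 2 without N1het healthy 6, 3 without N1het healthy 1 or 4, 11 without N1het healthy XCT790 5, 12 without N1het healthy XCT790 4 and 18 without N1het healthy 3. The labels do not say that the replicate numbers pair the libraries. Over 34 pairs of the same number in different groups the lowest correlation of deviations was -0.109. Their mean was 0.0104, beside -0.00255 for other pairs, and whether some single numbers pair libraries was not tested.

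The 4 genes called for N1het stenosis against N1het healthy became 9 over genes of 5 FPKM or more, 9 and 7 with median-of-ratios and upper-quartile scaling, 17 with the replicate block, 2 with depth as a covariate, and 0 with voom, within the 14 other libraries and within the 15. Single libraries left out gave 0 to 25: 0 without N1het stenosis 2, 2 without N1het stenosis 3, 7, 8, 11, 12 and 13 without N1het healthy XCT790 5, WT 4, N1het stenosis XCT790 3, N1het healthy 6 and N1het stenosis XCT790 1, and 25 without N1het healthy 3. N1het healthy against WT gave 1 called gene by the agent field and 1 within the 14 libraries, and 0 to 3 with libraries left out (2 without WT 2, 3 without WT 3). XCT790 gave 2 in healthy valves by the agent field, 0 to 0 with libraries left out, and in stenotic valves 2 without the filter and 0 to 2 with libraries left out (1 without N1het stenosis 1, 2 without N1het stenosis XCT790 3). The stenosis contrasts could not be fitted with groups from the agent field. The cause of these moves was not tested. The difference in log2 depth ranged from -0.47 to -0.29 with single libraries left out, at -4.30 M reads on the plain scale (p = 0.0792, exact permutation), and the Fisher test gave the same side of the threshold with the other groupings. Of the 53 called genes named, 0 changed sign in 1688 recomputed values, while the 116 named genes not called changed sign in 96 of 3699 and the 32 list medians in 24 of 1022. The 53 were called for wide differences in these same libraries, and most settings leave out a single library. Their unchanged signs are therefore no test of them. Depth limits genes under about 1 FPKM, which were left out.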
